A study of Mus musculus with 25 samples.

Results

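Livers of 5 metformin-treated Ncoa5+/- mice were set against livers of 4 untreated wild type mice, to describe how far treated mutant livers remained from untreated controls. The mice were chosen by their labels for genotype, treatment and age, and they make up 9 of the 25 mice of the study and 9 of the 17 mice of its 39-week cohort. All were C57BL/6 mice aged 39 weeks on a standard rodent diet. The treated Ncoa5+/- mice, heterozygous for Ncoa5 in their genotype label, drank metformin with their water, at a dose near 250 mg/kg daily, for 31 weeks from the age of 8 weeks. The untreated wild type mice carried no mutant allele and received no metformin. These groups differ in genotype and in treatment at once, so the parts of genotype and metformin cannot be told apart within this comparison, and values of the 5 untreated Ncoa5+/- and 3 metformin-treated wild type mice of the same age are given beside it. RNA came from whole liver, so fewer cells of a type and less RNA per cell cannot be told apart in any value. The labels do not give the sex of the mice.

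Ncoa5 encodes a coregulator of nuclear receptors, and mice heterozygous for it are known for glucose intolerance and liver tumours in males. Metformin is a biguanide used against type 2 diabetes that lowers glucose output by the liver. The transcription factor p53 answers DNA damage and other stress by raising genes for cell cycle arrest, of which Cdkn1a, the gene for the kinase inhibitor p21, is the best known, and genes for cell death such as Bax. Hepatocytes also carry the urea cycle and amino acid breakdown, the acute phase response, and detoxification by cytochrome P450 enzymes and by targets of the oxidant-responsive factor NRF2.

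Expression was deposited as FPKM, fragments scaled by transcript length and by the mapped fragments of the library, which can be compared between genes of different lengths. FPKM summed to 857291 to 1647880 per treated Ncoa5+/- library and to 1106558 to 1200168 per untreated wild type library. The 50 highest loci held 43.1 to 72.5% of that sum in treated Ncoa5+/- livers, with replicate 5 at the top, and 57.1 to 60.7% in untreated wild type livers. The files give no read totals. Steps between low values put the depth at 1.0 to 1.2 times that of untreated wild type replicate 1 in treated Ncoa5+/- libraries and at 0.85 to 1.01 times in untreated wild type libraries. Spearman correlations over the loci tested were 0.963 to 0.975 among treated Ncoa5+/- libraries, 0.944 to 0.967 among untreated wild type libraries and 0.944 to 0.969 between the groups. Alb, Serpina1a and Serpina1c, which mark hepatocytes, were listed at 0 in all 9 livers, and a 0 for genes so abundant in liver can be a failed estimate. The summed FPKM of the other 8 hepatocyte markers used was 10674 to 12379 in treated Ncoa5+/- livers and 10692 to 12854 in untreated wild type livers.

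With 5 treated mutant livers and 4 untreated controls, few loci passed a threshold adjusted for the number of loci tested. Of 11441 loci tested, 30 were called at a Benjamini-Hochberg adjusted p under 0.05 in limma (0.262% of the loci tested), with 25 higher (0.219%) and 5 lower (0.0437%) in treated Ncoa5+/- livers. Cdkn1a and Phlda3, both p53 targets, had the largest differences among called genes with a symbol of their own. The 5 genes that fell were Gpt2 and Prodh, of amino acid breakdown, the transporters Slc29a1 and Slc22a3, and Dexi. A regular symbol belonged to 21 of the called loci, and the other 9 carried several symbols, a provisional one or none. The groups did not overlap at any of the 30 called loci, beside 513 loci without overlap among all tested (4.48%). An unadjusted p under 0.05 was reached by 1385 loci (12.1%), of which 580 (5.07%) were higher and 805 (7.04%) lower.

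The size of the difference was bounded for most loci. The 95% interval of the log2 difference lay wholly within 1 log2 unit of 0, that is, within a 2-fold change of FPKM + 1, for 10658 loci (93.2%). It lay wholly above 1 for 9 loci (0.0787%) and wholly below -1 for 1 locus (0.00874%). These intervals are not adjusted for the number of loci, so a locus beyond the bound need not be called. The locus below -1 was not among the called loci. Over all loci the median log2 difference was -0.013, with quartiles of -0.126 and 0.093, and 46.4% of loci had a positive difference. Counts in the gene lists below stand beside these shares of all loci: 0.262% called, 12.1% at an unadjusted p under 0.05 and 46.4% positive. The same 4 untreated wild type mice also served as controls for untreated Ncoa5+/- mice, where 30 loci were called (0.262%), 29 of them higher. Between treated and untreated Ncoa5+/- livers limma called 0 loci, with 1010 at an unadjusted p under 0.05 (8.83%) and a smallest adjusted p of 0.166.

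The number of calls depended on single livers. It was 19 without untreated wild type replicate 2, 15 without replicate 3 and 16 without replicate 4. Without treated Ncoa5+/- replicate 4 it was 76, of which 37 were higher and 39 lower. Of the 30 called loci, 13 were called in all 9 fits that left out a mouse. All 30 kept their direction in those fits and in each of 13 other settings that tested them. As their groups did not overlap, leaving out a mouse could not reverse a direction, and of the other settings only those that rescaled libraries could. The kept direction is therefore no measure of how firm a call is. A fit of the 2 compared groups alone gave 27 calls, 16 of them among the 30.

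**Figure D1:**
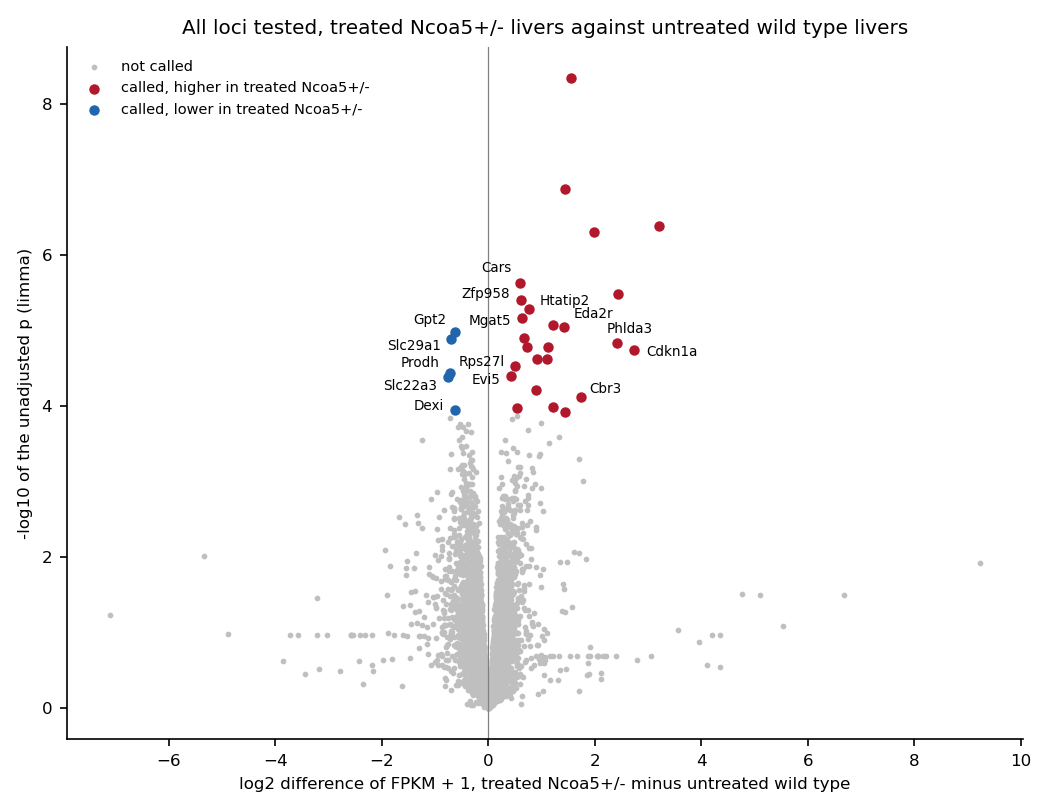
Each point is 1 of 11441 loci, with the log2 difference of FPKM + 1 (treated Ncoa5+/- minus untreated wild type) on the x axis and -log10 of the unadjusted limma p on the y axis; the 25 called loci that were higher are red, the 5 that were lower are blue, and 15 called genes are named. The 4 points above Cars are loci without a regular symbol, and grey points far from 0 on the x axis have p-values too large for a call.

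Ncoa5 itself (chr2:165000275-165034867) separated the groups only in part. Its FPKM was 3.32, 3.87, 3.88, 3.07 and 3.63 in treated Ncoa5+/- livers and 4.28, 4.68, 4.12 and 3.6 in untreated wild type livers. Wild type replicates 1 to 3 lay above all treated Ncoa5+/- livers, and wild type replicate 4 lay inside their range. The log2 difference was -0.18 (95% interval -0.49 to 0.13, limma adjusted p = 0.65). A two-sided exact permutation test gave p = 0.0794, also 0.0794 when adjusted over the 2 genes tested this way. The exact p was 0.0357 without untreated wild type replicate 4 and 0.0857 to 0.179 without any other mouse. As replicate 4 was the control inside the treated range, its removal could only part the groups and adds no support. Ncoa5 averaged 3.72 ± 0.714 FPKM in untreated Ncoa5+/- livers (SD, n = 5) and 4.63 ± 1.74 FPKM in treated wild type livers (SD, n = 3). Group means below are likewise given ± SD, and log2 differences ± SE.

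Cdkn1a (chr17:29090979-29100722) had the largest difference among called genes with a regular symbol. Its FPKM was 24.5, 15, 14.4, 11.3 and 25.7 in treated Ncoa5+/- livers and 1.28, 2.68, 1.71 and 1.56 in untreated wild type livers. Every treated Ncoa5+/- liver was over 4 times the highest untreated wild type liver, and replicates 1 and 5 were above the other treated livers. The ratio of the group means was 10.1, and Cdkn1a rose by 2.73 ± 0.45 on the log2 scale (SE, 95% interval 1.77 to 3.68, adjusted p = 0.0115 in limma). The exact permutation p was 0.00794, the smallest this design allows before adjustment, and 0.0159 when adjusted over the 2 genes.

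Cdkn1a was also high in mutant livers without metformin. Untreated Ncoa5+/- livers had 117, 17.7, 15, 18.3 and 33.5 FPKM and treated wild type livers 1.06, 0.684 and 0.673 FPKM. Replicate 1 was far above the other untreated Ncoa5+/- livers, and the ranges of treated and untreated Ncoa5+/- livers overlapped. Between those 2 groups the log2 difference was -0.7 (95% interval -1.6 to 0.2, adjusted p = 0.654).

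Phlda3, a p53 target whose protein restrains the kinase AKT, rose as well. Its FPKM was 15.9, 10.2, 7.42, 5.45 and 9.78 in treated Ncoa5+/- livers and 1.32, 0.865, 0.566 and 0.98 in untreated wild type livers. The lowest treated value was over 4 times the highest control value, the ratio of means was 10.4 and the log2 difference 2.41 ± 0.39 (adjusted p = 0.0113). Plk2, a polo-like kinase gene that p53 induces, had 15.2, 9.71, 10.4, 7.3 and 6.7 FPKM in treated Ncoa5+/- livers and 5.03, 3.25, 3.76 and 3.6 FPKM in untreated wild type livers. The ranges of the groups were apart, with treated Ncoa5+/- replicate 1 the highest, and the log2 difference was 1.11 ± 0.19 (adjusted p = 0.0137). The call of Cdkn1a was lost without untreated wild type replicate 3 or 4 (highest adjusted p = 0.057), that of Phlda3 without replicate 3 (0.0585) and that of Plk2 without replicate 2, 3 or 4 (0.0687). With a pseudocount of 5 neither Cdkn1a (adjusted p = 0.101) nor Phlda3 (0.114) was called, and in a fit of the 2 groups alone Plk2 was not (0.114).

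In the list of p53 targets for arrest and feedback, these 3 of 19 tested members were called, beside 0.262% of all loci. A positive difference was found in 14, beside 46.4% of all loci. The list's median log2 difference was 0.167, beside -0.013 over all loci, and ranged from 0.076 to 0.267 when a mouse was left out. It was 0.076 without untreated wild type replicate 1, 0.267 without replicate 2, 0.101 without replicate 4 and 0.104 without treated Ncoa5+/- replicate 1. Mdm2, which encodes the ligase that degrades p53, had 12.1 to 18 FPKM in treated Ncoa5+/- livers and 7.52 to 12.4 FPKM in untreated wild type livers and was not called (log2 difference 0.58, 95% interval 0.25 to 0.92, adjusted p = 0.152). Mdm2 led the list of p53 and its regulators, in which limma called 0 of 8 and 1 had an unadjusted p under 0.05. Of 8 tested p53 targets for DNA repair limma called 0, 2 had an unadjusted p under 0.05 and the median was -0.006, with a sign that changed between left-out mice (-0.036 to 0.03) and under a common median (0.015). Polk, for a repair polymerase, had 1.12 to 1.58 FPKM in treated Ncoa5+/- livers and 0.669 to 0.988 FPKM in untreated wild type livers (adjusted p = 0.181).

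Of the p53 targets linked to cell death, Eda2r and Bax rose. Eda2r, on the X chromosome, encodes a receptor of the tumour necrosis factor receptor family that binds ectodysplasin A2. Its FPKM was 3.2, 2.54, 2.48, 1.8 and 2.77 in treated Ncoa5+/- livers and 0.26, 0.452, 0.29 and 0.305 in untreated wild type livers. The groups were well apart, at a ratio of means of 7.82, and the log2 difference was 1.41 ± 0.22 (adjusted p = 0.00939). Bax, which encodes a pore-forming protein of the outer mitochondrial membrane, had 73.6, 55.9, 60.4, 55.4 and 53.1 FPKM in treated Ncoa5+/- livers and 34.6, 35.5, 40.6 and 37.3 FPKM in untreated wild type livers. Treated and control ranges did not overlap, and Bax rose by 0.67 ± 0.11 on the log2 scale, a ratio of means of 1.61 (adjusted p = 0.0108). Both stayed called whichever of the 9 mice was left out, though Eda2r was not called with a pseudocount of 5 (adjusted p = 0.096).

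Eda2r and Bax were the called genes among 9 tested in the list for apoptosis and death receptors, beside 0.262% of all loci. There 6 differences were positive, beside 46.4% of all loci, and the median was 0.178. This median was 0.368 without untreated wild type replicate 1, 0.08 without replicate 2, where 5 were positive and 4 negative, and 0.278 without replicate 4. Aen, a p53-induced nuclease gene, had 25.5, 20.8, 19.7, 13.8 and 18.7 FPKM in treated Ncoa5+/- livers and 11.2, 10.1, 9.49 and 10.8 FPKM in untreated wild type livers. No treated liver overlapped the controls, and Aen missed the threshold (log2 difference 0.84, adjusted p = 0.105). Its limma adjusted p was 0.0412 without treated Ncoa5+/- replicate 4, the lowest treated liver, and 0.177 without untreated wild type replicate 2.

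Rps27l, a p53-induced relative of the ribosomal protein gene Rps27, was the most abundant called gene with a regular symbol. Its FPKM was 1062, 1036, 1129, 982 and 1007 in treated Ncoa5+/- livers and 757, 799, 706 and 695 in untreated wild type livers. All treated Ncoa5+/- livers were above all controls, by a ratio of means of 1.41 (log2 difference 0.5 ± 0.09, adjusted p = 0.0163). The call was lost without untreated wild type replicate 3 or 4 or treated Ncoa5+/- replicate 1 or 3 (highest adjusted p = 0.0818). Rps27l resembles Rps27 in sequence, so reads may have been split between them.

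Cdkn1a and Bax are shown with the 250 bases before a RefSeq transcription start in the mouse build GRCm38.p6, because they rose together and both windows hold the p53 half-site consensus, a motif of 10 bases searched on both strands. Capitals mark each match. The Cdkn1a window is chr17:29090729-29090978 on the plus strand, and its matches begin 73 and 51 bases before the start. The Bax window is chr7:45466899-45467148 on the minus strand, and its match begins 201 bases before the start.
Cdkn1a: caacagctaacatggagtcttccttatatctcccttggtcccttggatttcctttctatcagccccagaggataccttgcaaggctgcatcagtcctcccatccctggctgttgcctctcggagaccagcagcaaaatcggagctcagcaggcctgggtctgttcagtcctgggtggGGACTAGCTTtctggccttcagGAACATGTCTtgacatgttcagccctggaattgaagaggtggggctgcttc
Bax: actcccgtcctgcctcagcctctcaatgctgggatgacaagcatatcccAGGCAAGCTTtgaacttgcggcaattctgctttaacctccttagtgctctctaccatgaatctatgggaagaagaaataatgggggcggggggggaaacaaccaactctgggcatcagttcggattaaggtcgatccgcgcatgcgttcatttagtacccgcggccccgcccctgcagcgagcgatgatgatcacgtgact
A match stood in 2341 of 32851 such windows of the RefSeq table (7.13%) and in 4 of 35 windows of the called genes (11.4%), of which 20 of 21 were in the table. The other windows with a match belonged to Zfp958 and Rps27l. The second listed start of Cdkn1a had none, and the motif's letters were not in the windows of Phlda3, Eda2r or Plk2.

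**Figure D2:**
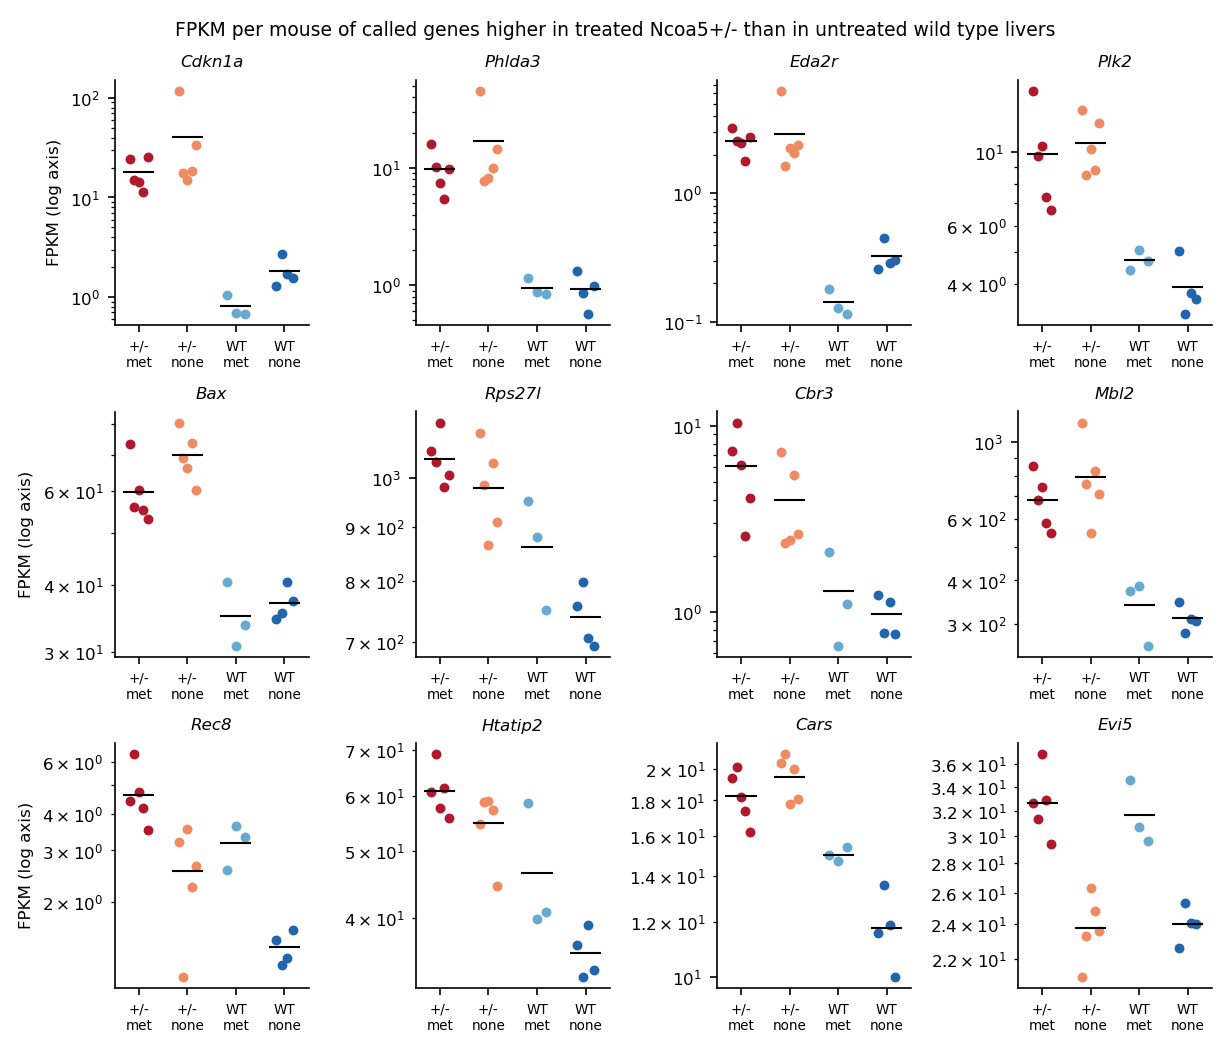
FPKM on log axes of 12 called genes that were higher in treated Ncoa5+/- than in untreated wild type livers; each point is a mouse and each bar a group mean, for treated Ncoa5+/- (+/- met, n = 5), untreated Ncoa5+/- (+/- none, n = 5), treated wild type (WT met, n = 3) and untreated wild type (WT none, n = 4) livers from left to right. For Cdkn1a, Phlda3, Eda2r, Plk2, Bax, Mbl2 and, by narrow gaps, Cbr3 and Cars every Ncoa5+/- liver of either treatment lies above every wild type liver. For Evi5 every metformin-treated liver of either genotype lies above every untreated liver.

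Cyclins and other cell cycle genes were described by 2 further lists, which held no call. Of 18 tested G1 cyclins, kinases and inhibitors limma called 0. An unadjusted p under 0.05 was reached by 4, of which 3 were higher and 1 lower, beside 12.1% of all loci. Ccnd1, the gene for cyclin D1, had 18.5, 19.1, 13.2, 10.2 and 25.1 FPKM in treated Ncoa5+/- livers and 6.88, 8.61, 7.58 and 8.16 FPKM in untreated wild type livers. Ranges did not overlap, and the difference of 0.99 (95% interval 0.56 to 1.42) missed the threshold (adjusted p = 0.0558). It passed under 8 settings, among them quantile normalization (adjusted p = 0.0436) and a fit without treated Ncoa5+/- replicate 4, the lowest treated liver (0.0111). It did not pass without untreated wild type replicate 2 (limma adjusted p = 0.0948). Ccnd1 averaged 21 ± 4.48 FPKM in untreated Ncoa5+/- livers and 5.49 ± 0.717 FPKM in treated wild type livers.

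Of 11 tested S to M phase genes limma called 0, and 3 had an unadjusted p under 0.05, 1 higher and 2 lower. Cdk1, for the mitotic kinase, had 1.22 to 2.86 FPKM in treated Ncoa5+/- livers and 0.41 to 1.27 FPKM in untreated wild type livers (adjusted p = 0.0867). Its limma adjusted p was 0.0406 without treated Ncoa5+/- replicate 1, the lowest treated liver, and 0.165 without untreated wild type replicate 2. Tk1, for thymidine kinase, had 12.7 to 19.7 FPKM in treated Ncoa5+/- livers and 21.9 to 27 FPKM in untreated wild type livers (adjusted p = 0.281).

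Cbr3 was the called gene among 23 tested members of the list of NRF2 and redox genes other than transferases. Another 4 members of that list share a locus with other genes and were not counted. Loci of several genes, such as the called locus of Ephx1 described below, were counted in no list. Cbr3 encodes a carbonyl reductase. Its FPKM was 7.29, 10.4, 6.16, 2.55 and 4.1 in treated Ncoa5+/- livers and 1.23, 0.773, 1.13 and 0.76 in untreated wild type livers. The treated livers spread widely but all lay above the controls (ratio of means 6.26, log2 difference 1.74 ± 0.33, adjusted p = 0.0336). Untreated Ncoa5+/- livers averaged 4.01 ± 2.2 FPKM and treated wild type livers 1.29 ± 0.734 FPKM. The call of Cbr3 was kept in 2 of the 9 fits that left out a mouse, those without treated Ncoa5+/- replicate 4 or 5, and was lost without any of the other 7 mice (highest adjusted p = 0.126) and under 4 other settings (highest 0.0882).

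The list of NRF2 and redox genes other than transferases had 23 tested members, of which 21 had a positive difference, beside 46.4% of all loci. Their median log2 difference was 0.191, beside -0.013 over all loci, and 9 were higher at an unadjusted p under 0.05, beside 5.07% of all loci. Nqo1, for a quinone reductase, had 6.69, 6.72, 8.94, 6.26 and 7.11 FPKM in treated Ncoa5+/- livers and 4.55, 2.69, 4.52 and 3.94 FPKM in untreated wild type livers. The groups did not overlap, but Nqo1 was not called (adjusted p = 0.152). Abcc4, for an efflux pump, had 1.54 to 3.27 FPKM in treated Ncoa5+/- livers and 0.778 to 1.02 FPKM in untreated wild type livers (adjusted p = 0.142).

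Of 20 tested glutathione transferase genes limma called 0. An unadjusted p under 0.05 was reached by 7, of which 5 were higher and 2 lower, beside 12.1% of all loci. The list's median was 0.093, and it was 0.013 without untreated wild type replicate 4 and 0.145 without treated Ncoa5+/- replicate 5. Gstm4 had 56.6 to 72.3 FPKM in treated Ncoa5+/- livers and 42.9 to 54.5 FPKM in untreated wild type livers (adjusted p = 0.0528). Its limma adjusted p was 0.0322 without untreated wild type replicate 1, the highest control, and 0.124 without replicate 2. Gstm1 had 1942 to 2424 FPKM in treated Ncoa5+/- livers and 1399 to 1672 FPKM in untreated wild type livers (adjusted p = 0.109). Gstm genes are similar in sequence and could share reads.

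Targets of xenobiotic receptors gave 0 calls in limma among 23 tested. An unadjusted p under 0.05 was reached by 7, of which 3 were higher and 4 lower, beside 12.1% of all loci. Cyp3a11, for a drug-metabolising P450 enzyme, had 2208, 1888, 1804, 1662 and 2111 FPKM in treated Ncoa5+/- livers and 1213, 1464, 1343 and 1279 FPKM in untreated wild type livers. The ranges of the groups were apart, and the difference of 0.54 (95% interval 0.31 to 0.77) narrowly missed the threshold (adjusted p = 0.0505). The limma adjusted p was 0.0286 with libraries set to a common median and 0.0621 without untreated wild type replicate 2. Cyp3a11 averaged 1475 ± 188 FPKM in untreated Ncoa5+/- livers and 1661 ± 169 FPKM in treated wild type livers. Cyp2c37 had 104 to 160 FPKM in treated Ncoa5+/- livers and 161 to 280 FPKM in untreated wild type livers (adjusted p = 0.211). P450 genes of a family are similar in sequence and could share reads.

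Mbl2 encodes a mannose-binding lectin that starts a branch of complement. Its FPKM was 850, 681, 741, 585 and 548 in treated Ncoa5+/- livers and 346, 283, 310 and 307 in untreated wild type livers. The controls were close together and all treated Ncoa5+/- livers lay above them (ratio of means 2.19, log2 difference 1.11 ± 0.18, adjusted p = 0.0114). Untreated Ncoa5+/- livers averaged 794 ± 217 FPKM and treated wild type livers 340 ± 69.1 FPKM. The call was lost without untreated wild type replicate 2, 3 or 4 (highest adjusted p = 0.056). The related lectin gene Mbl1 was not called (log2 difference 0.18, adjusted p = 0.314).

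Mbl2 was the called gene among 27 tested complement and coagulation genes and among 26 tested acute phase genes, of which 21 had a negative difference, with a median of -0.221. That median was -0.397 without untreated wild type replicate 1 and -0.139 without replicate 4. Mt1, a metallothionein gene, had 66.1, 51.6, 102, 67.6 and 66.9 FPKM in treated Ncoa5+/- livers and 183, 626, 64.2 and 697 FPKM in untreated wild type livers. Replicates 2 and 4 of the controls were far above the rest, and replicate 3 lay within the treated range (log2 difference -1.94, 95% interval -3.3 to -0.58, adjusted p = 0.24).

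The remaining called genes with higher levels belonged to no list. Htatip2, which encodes a short-chain dehydrogenase relative linked to tumour suppression, had 60.8, 69.1, 57.8, 61.7 and 55.8 FPKM in treated Ncoa5+/- livers and 36.5, 32.8, 39.1 and 33.6 FPKM in untreated wild type livers. Treated and control ranges did not overlap (log2 difference 0.76 ± 0.11, adjusted p = 0.00748). Cars, the cysteinyl-tRNA synthetase gene, had 19.4, 20.1, 18.2, 17.4 and 16.2 FPKM in treated Ncoa5+/- livers and 11.6, 13.6, 11.9 and 10 FPKM in untreated wild type livers. Its lowest treated value was above its highest control value (log2 difference 0.59 ± 0.08, adjusted p = 0.00537). Rec8, for a cohesin subunit known from meiosis, had 4.44, 6.39, 4.73, 4.18 and 3.53 FPKM in treated Ncoa5+/- livers and 1.49, 1.22, 1.29 and 1.61 FPKM in untreated wild type livers. The ratio of means was 3.32 and the log2 difference 1.22 ± 0.19 (adjusted p = 0.00939).

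Mgat5, for a Golgi enzyme that branches N-glycans, had 2.78 to 3.83 FPKM in treated Ncoa5+/- livers and 1.5 to 2.05 FPKM in untreated wild type livers (log2 difference 0.63 ± 0.1, adjusted p = 0.00892). The zinc finger gene Zfp958 had 3.63 to 4.59 FPKM in treated Ncoa5+/- livers and 2.11 to 2.68 FPKM in untreated wild type livers (log2 difference 0.6 ± 0.09, adjusted p = 0.00659). Htatip2, Cars, Rec8, Mgat5 and Zfp958 stayed called whichever mouse was left out, though in a fit of the 2 groups alone Cars (adjusted p = 0.0529) and Mgat5 (0.0517) were not.

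Tmem43, for a protein of the inner nuclear membrane, had 7.15 to 8.84 FPKM in treated Ncoa5+/- livers and 4.24 to 4.84 FPKM in untreated wild type livers (log2 difference 0.73 ± 0.12, adjusted p = 0.0114). It lost its call without untreated wild type replicate 2 or 4 (highest adjusted p = 0.0537) and when libraries with over 70% of their FPKM in 50 loci were left out (0.0514). Ppfibp2, a liprin family gene, had 8.35 to 10.7 FPKM in treated Ncoa5+/- livers and 5.47 to 6.93 FPKM in untreated wild type livers (log2 difference 0.54 ± 0.11, adjusted p = 0.0444). Its call was lost without any 1 of 7 mice, all but treated Ncoa5+/- replicates 3 and 4 (highest adjusted p = 0.124), and under 5 other settings (highest 0.118).

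Evi5, for a protein that binds Rab GTPases, had the smallest called difference. Its FPKM was 32.6, 31.3, 36.9, 32.9 and 29.4 in treated Ncoa5+/- livers and 22.6, 25.3, 24.1 and 24 in untreated wild type livers. No treated liver overlapped the controls (log2 difference 0.42 ± 0.08, adjusted p = 0.02). Evi5 averaged 23.8 ± 1.93 FPKM in untreated Ncoa5+/- livers and 31.6 ± 2.6 FPKM in treated wild type livers. Between treated and untreated Ncoa5+/- livers its log2 difference was 0.44 (95% interval 0.29 to 0.59, adjusted p = 0.166), and between treated and untreated wild type livers 0.38 (95% interval 0.2 to 0.56, adjusted p = 0.264). The call against untreated wild type livers was lost without untreated wild type replicate 1, 3 or 4 or treated Ncoa5+/- replicate 1 or 3 (highest adjusted p = 0.0774) and in the 2 groups alone (0.0599).

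Of the genes that fell, Gpt2 and Prodh act in amino acid breakdown. Gpt2 encodes the mitochondrial alanine aminotransferase. Its FPKM was 103, 127, 124, 128 and 134 in treated Ncoa5+/- livers and 215, 186, 162 and 200 in untreated wild type livers. All treated livers lay below all controls, and Gpt2 fell by 0.63 on the log2 scale (SE 0.1, adjusted p = 0.0102). Prodh, for the mitochondrial proline dehydrogenase, had 66.2, 67.4, 69, 88.3 and 71.7 FPKM in treated Ncoa5+/- livers and 155, 97.3, 128 and 107 FPKM in untreated wild type livers. Treated Ncoa5+/- replicate 4 came nearest to the controls without reaching them, and Prodh fell by 0.73 on the log2 scale (SE 0.13, adjusted p = 0.0194). Gpt2 stayed called whichever mouse was left out but not in a fit of the 2 groups alone (adjusted p = 0.0541). Prodh was lost without untreated wild type replicate 1 or 3 or treated Ncoa5+/- replicate 1, 2 or 3 (highest adjusted p = 0.087) and under 3 other settings (highest 0.114).

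The list of urea cycle and amino acid catabolism genes had 28 tested members, of which these 2 were called, beside 0.262% of all loci. A negative difference was found in 26, while 46.4% of all loci had a positive one. The median was -0.273, beside -0.013 over all loci, and -0.216 after quantile normalization. Counting the called genes, 12 members were lower at an unadjusted p under 0.05, beside 7.04% of all loci. Gpt, the cytosolic alanine aminotransferase gene, had 171, 129, 151, 205 and 154 FPKM in treated Ncoa5+/- livers and 230, 216, 255 and 207 FPKM in untreated wild type livers. Replicate 4 was the treated liver closest to the controls, and the difference of -0.5 did not pass (adjusted p = 0.0829). Without that liver the limma adjusted p was 0.0112, but its removal could only widen the difference and adds no support. Without untreated wild type replicate 2 the limma adjusted p was 0.119. Of 16 tested periportal hepatocyte genes limma called 0, 14 had a negative difference, 5 had an unadjusted p under 0.05 and the median was -0.262 (-0.154 without treated Ncoa5+/- replicate 5). The liver glutaminase gene Gls2 had 146 to 279 FPKM in treated Ncoa5+/- livers and 267 to 351 FPKM in untreated wild type livers (adjusted p = 0.209).

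Both called transporters fell. Slc29a1 encodes the equilibrative nucleoside transporter ENT1. Its FPKM was 95.3, 106, 90, 133 and 85.6 in treated Ncoa5+/- livers and 150, 178, 169 and 161 in untreated wild type livers. Replicate 4 was the highest treated liver and still below the controls, and Slc29a1 fell by 0.7 on the log2 scale (SE 0.11, adjusted p = 0.0108). Slc22a3 encodes the organic cation transporter OCT3, for which metformin is a substrate. It had 0.317, 0.936, 0.582, 0.771 and 0.531 FPKM in treated Ncoa5+/- livers and 2.24, 1.37, 1.4 and 2 FPKM in untreated wild type livers. These are low values, without overlap (log2 difference -0.76 ± 0.13, adjusted p = 0.02), and untreated Ncoa5+/- livers averaged 0.657 ± 0.109 FPKM. The call of Slc29a1 was lost without untreated wild type replicate 2 or 3 (highest adjusted p = 0.0546) and in the 2 groups alone (0.0847). That of Slc22a3 was lost without untreated wild type replicate 1 or 4 or treated Ncoa5+/- replicate 1, 3 or 5 (highest adjusted p = 0.0914) and under 2 other settings (highest 0.0887). Slc22a3 was the called gene of 5 tested transporters of metformin and organic cations. Slc47a1, for the efflux transporter MATE1, had 30.7 to 50.6 FPKM in treated Ncoa5+/- livers and 44.2 to 66.1 FPKM in untreated wild type livers (adjusted p = 0.256).

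Dexi, named for its induction by dexamethasone, had 15.2, 17.4, 13.4, 16.5 and 13 FPKM in treated Ncoa5+/- livers and 21.6, 22.6, 23.4 and 28.6 FPKM in untreated wild type livers. Ranges did not overlap, and Dexi fell by 0.64 on the log2 scale (SE 0.12, adjusted p = 0.0445). The call was kept in 2 of the 9 fits that left out a mouse, those without treated Ncoa5+/- replicate 2 or 4, was lost without any of the other 7 mice (highest adjusted p = 0.144), and was lost under 7 other settings (highest 0.136). Untreated Ncoa5+/- livers averaged 22.5 ± 3.82 FPKM and treated wild type livers 18.6 ± 2.7 FPKM.

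**Figure D3:**
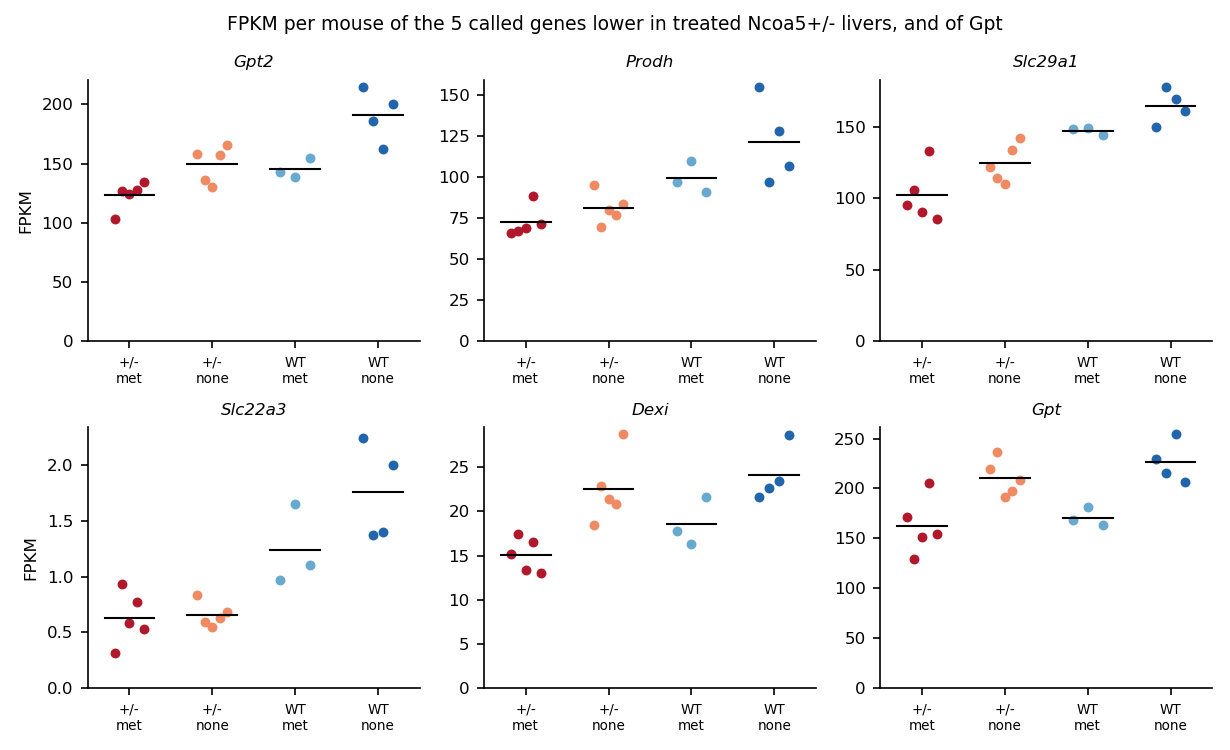
FPKM per mouse, on axes that start at 0, of the 5 called genes that were lower in treated Ncoa5+/- than in untreated wild type livers and of Gpt, which missed the threshold; groups run from treated Ncoa5+/- on the left to untreated wild type on the right, and bars are group means. Treated Ncoa5+/- livers have the lowest mean in all 6 panels, and all their points lie below those of untreated wild type livers.

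The smallest p-values came from loci without a regular symbol, of which the 2 with the smallest p were named by rule and the other 7 after their values were seen. XLOC_017134 (chr17:21474540-21478700) overlaps no gene in GENCODE M21, and the nearest gene before it is Zfp51, at a distance of 8953 bases. Its FPKM was 7.42, 5.36, 6.13, 5.17 and 5.08 in treated Ncoa5+/- livers and 1.3, 1.16, 1.53 and 1.32 in untreated wild type livers. Both groups were tight and far apart (log2 difference 1.55 ± 0.13, adjusted p = 5.32e-05). The locus written as Gm11974,Gm22457 (chr11:6525591-6528801) is that of Snhg15, a small nucleolar RNA host gene. It had 18.1, 17.3, 14.7, 10.6 and 12.2 FPKM in treated Ncoa5+/- livers and 4.52, 3.94, 5.13 and 5.01 FPKM in untreated wild type livers. The groups did not overlap (log2 difference 1.45 ± 0.16, adjusted p = 0.000772), and both loci stayed called whichever mouse was left out.

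The largest called difference was at 2410089E03Rik (chr15:8169073-8271158), the RefSeq gene Cplane1, known for a role in cilia. Its FPKM was 55.2, 24.9, 22.6, 23 and 26.3 in treated Ncoa5+/- livers and 1.82, 2.44, 2.25 and 2.28 in untreated wild type livers. Treated Ncoa5+/- replicate 1 stood above its group, and every treated liver was more than 9 times the highest control (ratio of means 13.8, log2 difference 3.21 ± 0.39, adjusted p = 0.00142). Untreated Ncoa5+/- livers had 168, 71.1, 44.8, 24.5 and 60.7 FPKM and treated wild type livers 1.29 to 1.5 FPKM. XLOC_008127 (chr12:27946219-27987582), which overlaps the long noncoding RNA gene Gm45941, had 6.84 to 13.8 FPKM in treated Ncoa5+/- livers and 0.342 to 1.77 FPKM in untreated wild type livers (log2 difference 2.43 ± 0.35, adjusted p = 0.00631). XLOC_023738 (chr3:100785726-100786586), which overlaps no gene in GENCODE M21, had 4.16 to 12.2 FPKM in treated Ncoa5+/- livers and 0.77 to 2.02 FPKM in untreated wild type livers (log2 difference 1.98 ± 0.24, adjusted p = 0.00142). These 3 loci also stayed called whichever mouse was left out.

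The remaining 4 such loci were less firm. The locus of Ephx1, the microsomal epoxide hydrolase gene, with the pseudogene Gm36961 (chr1:180976158-181020904) had 907, 1031, 933, 782 and 649 FPKM in treated Ncoa5+/- livers and 502, 434, 506 and 390 FPKM in untreated wild type livers. The ranges of the groups were apart (log2 difference 0.9 ± 0.17, adjusted p = 0.0287). Blmh,Tmigd1 (chr11:76902159-76987379), which joins 2 protein-coding genes, had 1.24 to 5.36 FPKM in treated Ncoa5+/- livers and 0.464 to 0.715 FPKM in untreated wild type livers (log2 difference 1.22 ± 0.24, adjusted p = 0.0438). Both were called only in the fits without treated Ncoa5+/- replicate 4 or 5 among the 9 that left out a mouse (highest adjusted p = 0.126 and 0.126), and the first lost its call under 2 other settings (highest 0.0819) and the second under 6 (highest 0.162). The noncoding Gm13657 (chr2:75772506-75788947) had 1.75 to 3.03 FPKM in treated Ncoa5+/- livers and 0.497 to 1.28 FPKM in untreated wild type livers (log2 difference 0.91 ± 0.15, adjusted p = 0.0137), and was not called without untreated wild type replicate 2, 3 or 4 (highest 0.0706) or under 2 other settings (highest 0.0546). Gm15638 (chr16:45744708-46010444), antisense to Phldb2 and Plcxd2, had 3.77 to 6.91 FPKM in treated Ncoa5+/- livers and 0.716 to 1.7 FPKM in untreated wild type livers (log2 difference 1.45 ± 0.28, adjusted p = 0.0463). Of the 9 fits, its call held in that without treated Ncoa5+/- replicate 4 and was lost in the others (highest adjusted p = 0.149), and it was lost under 4 other settings (highest 0.115). Strand-specific counting is not stated in the sources used here, so reads of Gm15638 and its partners cannot be told apart.

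Beside the other groups, the called genes showed different orders of level. Mgat5 averaged 3.19 ± 0.449 FPKM in treated Ncoa5+/-, 3.77 ± 0.418 in untreated Ncoa5+/-, 1.59 ± 0.171 in treated wild type and 1.7 ± 0.247 in untreated wild type livers, with both Ncoa5+/- groups above both wild type groups. Tmem43 had the same split, at 8.02 ± 0.751 FPKM in treated Ncoa5+/-, 9.17 ± 1.86 in untreated Ncoa5+/-, 3.97 ± 0.677 in treated wild type and 4.44 ± 0.276 in untreated wild type livers. In Rec8 the means of both other groups lay between those compared, at 4.65 ± 1.07 FPKM in treated Ncoa5+/-, 2.55 ± 0.946 in untreated Ncoa5+/-, 3.19 ± 0.546 in treated wild type and 1.4 ± 0.179 in untreated wild type livers. The same held for Gpt2, at 123 ± 11.9 FPKM in treated Ncoa5+/-, 149 ± 15.4 in untreated Ncoa5+/-, 146 ± 8.61 in treated wild type and 191 ± 22.7 in untreated wild type livers (SD, n = 5, 5, 3 and 4 in each case). The comparisons with untreated wild type livers share those 4 mice and are not independent, and these orders were not tested.

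**Figure D4:**
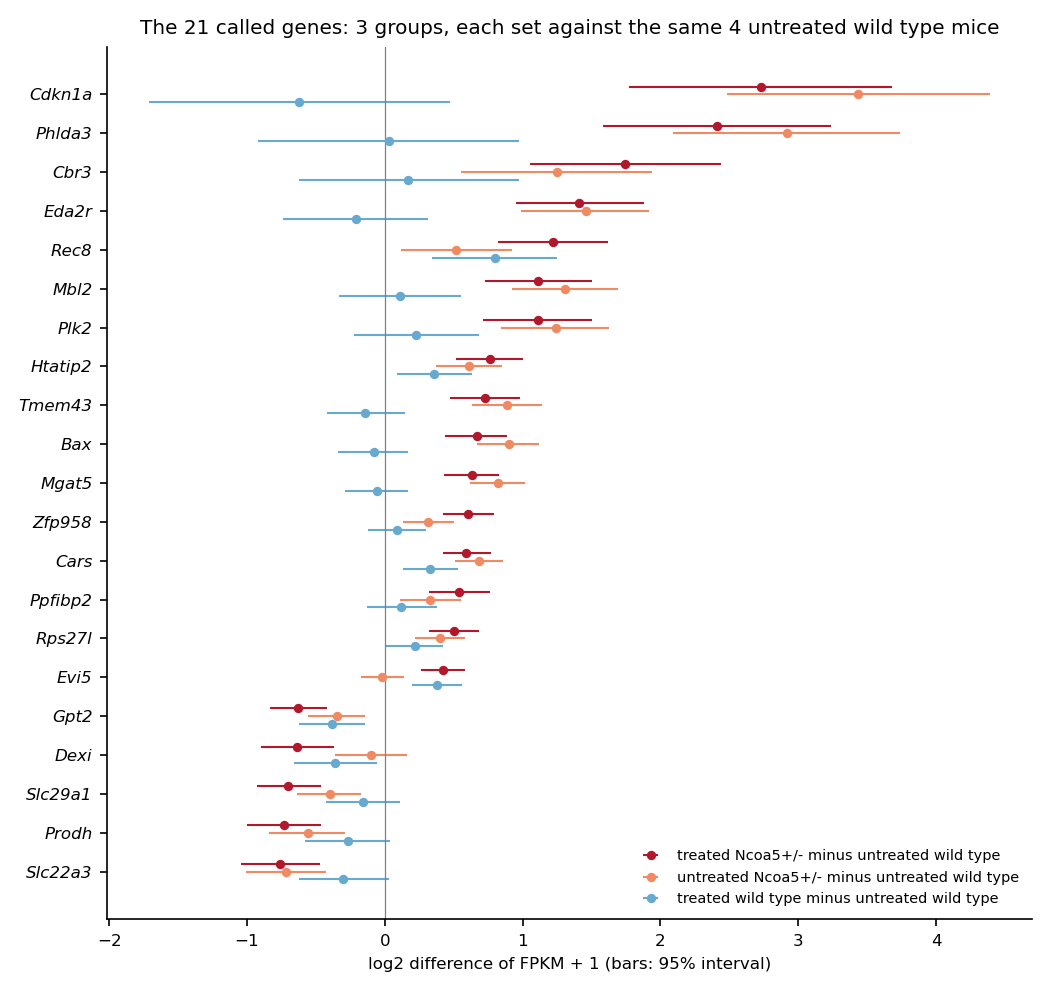
Log2 differences of FPKM + 1 with 95% intervals for the 21 called genes, for treated Ncoa5+/- (red), untreated Ncoa5+/- (orange) and treated wild type (blue) livers, each minus the same 4 untreated wild type livers. For Cdkn1a the differences are 2.73, 3.43 and -0.62 in that order of groups, and for Evi5 they are 0.42, -0.02 and 0.38.

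Lipid genes held no call. Of 31 tested genes for fatty acid oxidation and PPAR-alpha targets limma called 0, and 4 had an unadjusted p under 0.05, beside 12.1% of all loci. A positive difference was found in 24, with a list median of 0.161 (0.244 without treated Ncoa5+/- replicate 1). Hadhb, for a subunit of the mitochondrial trifunctional protein, had 93, 98.8, 112, 90.6 and 104 FPKM in treated Ncoa5+/- livers and 84.1, 79.2, 77 and 82.1 FPKM in untreated wild type livers. Treated and control ranges did not overlap (limma adjusted p = 0.0715, 0.0188 after quantile normalization and 0.132 without untreated wild type replicate 2). Fgf21, a hormone gene of fasting and stress, had 2.93, 23.2, 16, 2.3 and 2.24 FPKM in treated Ncoa5+/- livers and 2.6, 0.291, 1.17 and 1.15 FPKM in untreated wild type livers. Treated Ncoa5+/- replicates 2 and 3 were high and the others lay near the highest control (adjusted p = 0.245). Of 26 tested genes for fatty acid synthesis and lipid storage limma called 0, with 2 at an unadjusted p under 0.05. Dgat2, for the last step of triglyceride synthesis, had 277 to 354 FPKM in treated Ncoa5+/- livers and 366 to 497 FPKM in untreated wild type livers (log2 difference -0.49, adjusted p = 0.0692). Its limma adjusted p was 0.0291 without treated Ncoa5+/- replicate 4, the highest treated liver, and 0.154 without untreated wild type replicate 2.

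Genes of energy sensing and insulin signalling held no call either. Of 9 tested AMPK subunits and upstream kinases limma called 0, with 2 at an unadjusted p under 0.05, and all 9 had a 95% interval within 1 log2 unit of 0. Prkag2, a regulatory subunit gene, had 7.17 to 9.48 FPKM in treated Ncoa5+/- livers and 8.74 to 13 FPKM in untreated wild type livers (adjusted p = 0.181). Of 25 tested genes for insulin signalling and glucose output limma called 0, 3 had an unadjusted p under 0.05 and 20 had a negative difference. Akt2, for an insulin-responsive kinase, had 42.7 to 49.9 FPKM in treated Ncoa5+/- livers and 50.2 to 59.8 FPKM in untreated wild type livers (adjusted p = 0.153).

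Cytosolic ribosomal protein genes had positive differences in 37 of 39 tested, with a median of 0.121, and limma called 0, with 9 at an unadjusted p under 0.05. Rps19 had 426 to 538 FPKM in treated Ncoa5+/- livers and 358 to 413 FPKM in untreated wild type livers (adjusted p = 0.177). Its limma adjusted p was 0.0422 after quantile normalization and 0.259 without untreated wild type replicate 2. Ribosomal protein genes have many processed copies that could share reads. Of 13 mitochondrially encoded genes in the list, 7 shared a locus with other genes and 5 were tested. Of these, mt-Co2 had 0.213 to 1.08 FPKM in treated Ncoa5+/- livers and 0.94 to 1.39 FPKM in untreated wild type livers. Values so far below those of mt-Cytb can be a failed estimate. Limma called 0 of the 5, with 1 at an unadjusted p under 0.05. It was mt-Cytb, for cytochrome b, with 3720, 4161, 5186, 7151 and 6319 FPKM in treated Ncoa5+/- livers and 9444, 8287, 7548 and 8968 FPKM in untreated wild type livers, without overlap (adjusted p = 0.186).

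Fos and Hspb1, which answer acute stress, varied more among the controls than among the treated livers. Fos, an immediate early gene, had 0.655, 0.371, 0.435, 1.21 and 0.659 FPKM in treated Ncoa5+/- livers and 0.617, 76.5, 7.85 and 0.32 FPKM in untreated wild type livers. The small heat shock gene Hspb1 had 20.5, 29.9, 21.3, 18.6 and 19.7 FPKM in treated Ncoa5+/- livers and 18.7, 191, 45.6 and 108 FPKM in untreated wild type livers. Untreated wild type replicate 2 was the highest in both, and replicate 1 was near the treated livers. All 10 tested heat shock genes had a negative difference, with a median of -0.608, as had 19 of 22 immediate early genes (median -0.368) and 19 of 22 ER chaperone genes (median -0.38). Without untreated wild type replicate 2 the medians were -0.25 for heat shock, -0.075 for immediate early and -0.21 for ER chaperone genes. That of immediate early genes was -0.556 without untreated wild type replicate 1 and -0.604 without replicate 4. Limma called 0 genes of these 3 lists. An unadjusted p under 0.05 was reached by 5 of 10 heat shock and 8 of 22 ER chaperone genes, all lower. It was reached by 4 of 22 immediate early genes, 1 higher and 3 lower, beside 12.1% of all loci.

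Inflammatory genes gave no calls. Of 15 tested NF-kB and cytokine genes 12 had a negative difference and limma called 0. An unadjusted p under 0.05 was reached by 6, beside 12.1% of all loci. The chemokine gene Ccl2 had 0.476 to 0.988 FPKM in treated Ncoa5+/- livers and 1.43, 8, 1.77 and 1.02 FPKM in untreated wild type livers, with control replicate 2 the highest (adjusted p = 0.258). Cxcl10, an interferon-induced chemokine gene, had 1.45, 1.62, 1.93, 2.49 and 3.53 FPKM in treated Ncoa5+/- livers and 6.25, 6.17, 4.21 and 4.02 FPKM in untreated wild type livers. No treated liver overlapped the controls (log2 difference -0.96, adjusted p = 0.135). Of 24 tested interferon-stimulated genes 20 had a negative difference, with a median of -0.214, and limma called 0. An unadjusted p under 0.05 was reached by 5, of which 1 was higher and 4 lower. The median was -0.1 without untreated wild type replicate 1, -0.324 without replicate 2 and -0.093 without replicate 4.

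Markers of other liver cell types gave no calls among those tested. Few were tested for some types, at 4 of 14 cholangiocyte, 3 of 24 T, B and NK cell and 2 of 13 neutrophil markers. The summed FPKM of 20 macrophage and Kupffer cell markers was 352 to 494 in treated Ncoa5+/- livers and 309 to 766 in untreated wild type livers. For 17 endothelial markers it was 231 to 267 in treated Ncoa5+/- livers and 195 to 261 in untreated wild type livers, and for 25 stellate cell and matrix markers 360 to 411 in treated Ncoa5+/- livers and 403 to 446 in untreated wild type livers. All 3 pairs of ranges overlapped. Fn1 held much of the stellate cell and matrix sum. It had 194 to 257 FPKM in treated Ncoa5+/- livers and 264 to 282 FPKM in untreated wild type livers. Of 18 tested stellate cell and matrix markers 11 had a positive and 7 a negative difference. Their median was 0.049, and -0.006 to 0.102 when a mouse was left out. The 13 cholangiocyte markers summed to 9.84 to 14.1 FPKM in treated Ncoa5+/- livers and 9.75 to 16.8 FPKM in untreated wild type livers, and the 18 T, B and NK cell markers to 6.66 to 26.2 FPKM in treated Ncoa5+/- livers and 5.49 to 12.9 FPKM in untreated wild type livers. The 13 neutrophil markers, of which Ly6g was at 0 throughout, summed to 5.3 to 22 FPKM in treated Ncoa5+/- livers and 6.84 to 22 FPKM in untreated wild type livers. Of 16 tested macrophage and Kupffer cell markers 8 had a positive and 8 a negative difference, with a median of -0.005. Without untreated wild type replicate 3 the list had 16 positive and 0 negative, and without replicate 1 it had 3 positive and 13 negative. Trem2 and Cd9 had the smallest p in that list and do not stand for it. Trem2, which marks lipid-associated macrophages, had 0.968 to 1.86 FPKM in treated Ncoa5+/- livers and 0.269 to 0.715 FPKM in untreated wild type livers, without overlap (adjusted p = 0.155). Cd9 had 17 to 19 FPKM in treated Ncoa5+/- livers and 11.8 to 12.9 FPKM in untreated wild type livers (adjusted p = 0.127). Its limma adjusted p was 0.00665 in a fit of the 2 groups alone and 0.195 without untreated wild type replicate 2. The part of cell makeup in the called genes was not tested.

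**Figure D5:**
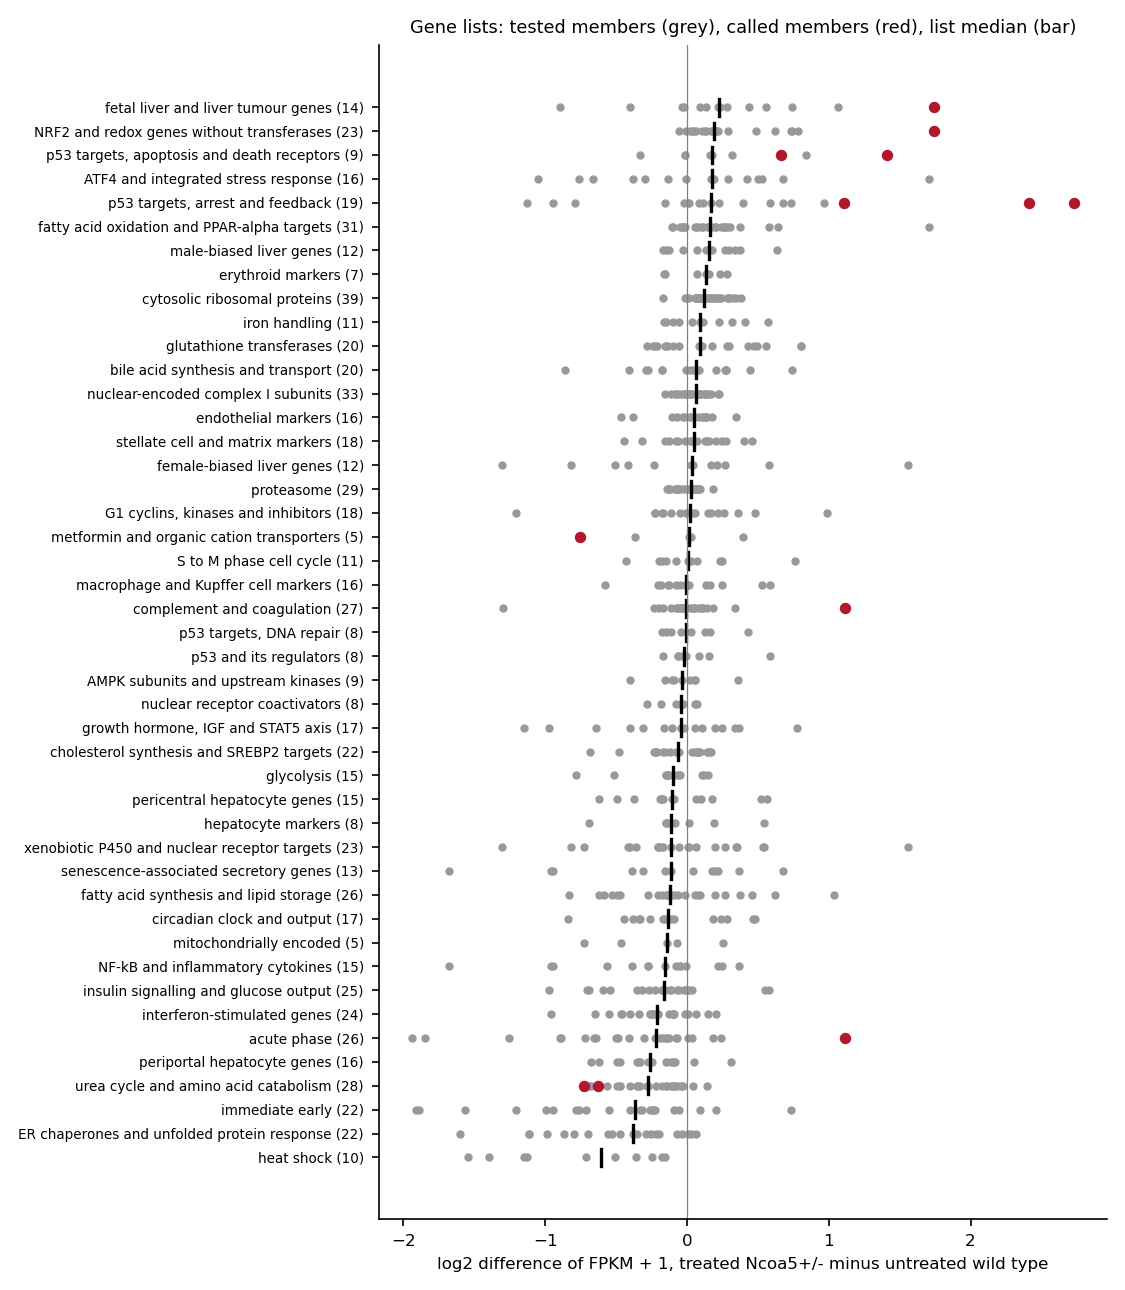
Log2 differences of FPKM + 1 (treated Ncoa5+/- minus untreated wild type) for the tested members of each gene list with at least 5 of them, with called members in red, list medians as black bars and the number tested in brackets; a gene can stand in several lists. With all mice, heat shock genes have the lowest median, -0.608, and the fetal liver and liver tumour list, whose called member is Cbr3, the highest, 0.227; without untreated wild type replicate 2 heat shock is at -0.25 and interferon-stimulated genes, at -0.324, are lowest, and the highest list changes with the mouse left out.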

How the data were processed

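RNA-seq of whole liver from 9 mice was analysed, with the other 8 mice of the 39-week cohort in the fit. Per the submitters' processing notes, Trimmomatic 0.33, TopHat2, Cufflinks and Cuffnorm were used, with the build GRCm38.p5. The deposited values are FPKM per locus and mouse, and how the authors scaled libraries against each other is not given in the sources used here. The files give no counts, so depth is known only relative to another library, and low loci are the least precise.

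FPKM was analysed as log2(FPKM + 1), which understates changes of low genes, for loci that averaged 1 FPKM or more across the 17 mice. Loci at 0 in a whole group but expressed in another were left out (14 loci, among them Apoa1, Apoa2 and Cyp2e1). Limma 3.58.1 in R 4.3.3 (lmFit, eBayes with a trend) was fitted to the 4 groups of the cohort and tested on simulated data. Two-sided exact permutation tests were added for Ncoa5 and Cdkn1a. Samples are labelled as separate mice.

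Named genes were Ncoa5, Cdkn1a, each called locus with a regular symbol, the 2 other called loci with the smallest p, and some of the 3 members with the smallest p in each gene list. The members and lists were chosen with earlier results of these data known. Alternatives covered pseudocounts, filters, scaling, weights, the 2 groups alone and each mouse left out; those of list medians were chosen after seeing the data. Figures were drawn with matplotlib 3.10.9.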

Additional observations from a re-analysis of the deposited data

Results flagged for a closer look

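A single mouse stood apart from its group, by Dixon's criterion on the gap to the nearest mouse over the group's range, in 9 of 172 checks over 86 loci and the 2 groups compared, and chance alone gives about 1 in 20. Of treated Ncoa5+/- livers, replicate 4 had the most such values. Prodh was at 88.3 FPKM, against 66.2 to 71.7 in the other 4, XLOC_023738 at 4.16 FPKM, against 9.06 to 12.2, and Polk at 1.12 FPKM, against 1.53 to 1.58. Replicate 1 had Gpt2 at 103 FPKM, against 124 to 134 in the other 4 and 2410089E03Rik at 55.2 FPKM, against 22.6 to 26.3. Replicate 2 had Hspb1 at 29.9 FPKM, against 18.6 to 21.3. Replicate 3 had Cdkn2c, for a cyclin-dependent kinase inhibitor, at 2.49 FPKM, against 3.4 to 3.75, and Rpl26, for a ribosomal protein, at 651 FPKM, against 515 to 547. Of untreated wild type livers, replicate 3 had Tk1 at 27 FPKM, against 21.9 to 22 in the other 3.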

How the results depend on the processing

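The count of called loci was 15 to 76 when a mouse was left out, against 30 with all, lowest without untreated wild type replicate 3 and highest without treated Ncoa5+/- replicate 4. Under the 13 other settings it was 24 to 45, with 45 under array weights and 44 with failed estimates kept at 0. Quantile normalization gave 30 higher and 7 lower calls, a common median 28 and 4. Array weights gave 29 and 16, failed estimates at 0 28 and 16, and the 2 groups alone 26 and 1. Loci with an interval within 1 log2 unit of 0 numbered 10516 to 10627 when a mouse was left out, against 10658. The pseudocount moved this count more, to 10182 with 0.1 and 11039 with 5, and in the 2 groups alone it was 10699. Of the 30 called loci, 11 were called under each of the 13 other settings that tested them. Over combinations of called locus and setting, 78 lost the call with a mouse left out and 45 otherwise, and 31 combinations made a call of a named locus not called in all mice. No called locus changed direction, which leaving out a mouse could not bring about where groups do not overlap. The median over all loci, -0.013, was 0.003 after quantile normalization and 0.008 with a common median. The exact permutation test of Ncoa5 gave log2 differences of -0.237 to -0.136 when a mouse was left out, with exact p of 0.0357 to 0.179. That of Cdkn1a gave 2.593 to 2.873, with adjusted p of 0.0357 without a wild type mouse and 0.0571 without a treated Ncoa5+/- mouse; the unadjusted exact p were then 0.0179 and 0.0286, the smallest those designs allow. The cause of the changed counts was not tested. No paired analysis was possible because the labels give no replicate numbers; those used here follow the order of deposit and pair no mice. Low loci such as Slc22a3 are the least precise.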
